A study of Mus musculus with 6 samples.

Results

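The glutathione transferases, glutathione peroxidases and peroxiredoxins were followed in mouse glioma cells treated with SHP099, an allosteric inhibitor of the phosphatase SHP-2. Members were taken by gene symbol: the alpha, mu, omega, pi, theta and zeta classes of cytosolic glutathione transferase, the mitochondrial and peroxisomal kappa class, which is counted here with the cytosolic ones, the microsomal transferases Mgst1 to Mgst3, the glutathione peroxidases and the peroxiredoxins, with pseudogenes left out. This gave 40 of the 53346 gene symbols in the files, and 24 of the 40 reached a mean of at least 1 FPKM (fragments per length of transcript and per number of mapped fragments) in at least 1 dose and were compared. The cells carry Ink4a/Arf-/- together with PDGFRa and PDGF-A at every dose, and the labels give astrocytes as their source. They received 0, 5 or 10 µM SHP099; the length of treatment, the number of clones and the origin of the introduced genes are not given in the labels. The 2 files of polyadenylated RNA of a dose differ in their labels only by the lane, 6 or 7, and nothing in the labels names separate cultures. They were therefore read as repeat runs of 1 library, and on that reading the lanes show sequencing error only, no test between doses can be made, and variation between cultures was not measured.

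Glutathione transferases couple the tripeptide glutathione to reactive and often lipophilic compounds, and the microsomal transferases do so in membranes, where some also act on lipid hydroperoxides and leukotrienes. Glutathione peroxidases reduce peroxides with glutathione as the electron donor, several of them through a selenocysteine. Peroxiredoxins reduce peroxides through a reactive cysteine that is mostly regenerated by thioredoxin, and in brain tissue astrocytes are known as a main site of glutathione metabolism.

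The recovered depth was 30820000 to 47120000 mapped fragments per file, and 3 fragments in a transcript of 2 kb correspond to 0.0362 to 0.0553 FPKM. The median absolute difference between the lanes of a dose was 0.047, 0.041 and 0.062 on the log2(FPKM + 1) scale over the 24 genes at 0, 5 and 10 µM, beside 0.051, 0.058 and 0.064 over all genes compared. The summed FPKM of a file ran from 552800 to 953134, and the highest sum, in the lane 6 file of 5 µM, includes 385860 FPKM listed for the small nucleolar RNA gene Snora62. Markers of astrocytes were compared for 4 of 10 genes (Slc1a3, Gja1, Glul and Sox9), and the sum of the 10 was 76.8, 63.4 and 59.2 FPKM at 0, 5 and 10 µM. Glul was lower at both doses, with log2 folds of −0.64 at 10 µM and −0.73 at 5 µM, and the other 3 were not called. Gfap stayed under 0.1 FPKM and Aqp4 was listed at 0 in every file, so the level of the defining astrocyte markers does not show the labelled source. Markers of the oligodendrocyte lineage were compared for 0 of 7 genes, of endothelium for 0 of 4 and of hepatocytes, which are rich in these transferases, for 0 of 4. Of 5 neuronal markers 1 was compared, Tubb3, at 14.6, 18.7 and 16.4 FPKM at 0, 5 and 10 µM, which was not called. The summed level of 6 fibroblast and meningeal markers was 1954 FPKM without drug, 3907 with 5 µM and 3702 with 10 µM. Of the 6, 4 were compared, Col1a1, Col1a2, Dcn and Pdgfrb, and were called higher at both doses. Lum and Thy1 stayed under 1 FPKM. Most of the sum is Col1a1, at 655, 1349 and 1174 FPKM, and Col1a2, at 1231, 2428 and 2406 FPKM. The sum of 6 microglial markers was 63.99, 119 and 127 FPKM. Nearly all of the microglial sum is Tmem119, with Cx3cr1, Csf1r, P2ry12 and Ptprc under 0.1 FPKM in every file. The part of these shifts in the results below was not tested, and in bulk RNA fewer cells of a kind and less RNA per cell cannot be told apart.

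At both doses 5 of the 24 genes were higher than at 0 µM: the transferases Gstm2, Gstm7, Gstt1 and Gstt3 and the peroxidase Gpx8. The microsomal transferase Mgst2, the omega transferase Gsto1 and the mitochondrial peroxiredoxin Prdx3 were lower at both doses, and the pi transferase Gstp1 was lower at 5 µM. A gene counts as higher or lower where the lane means on log2(FPKM + 1) differ by at least 1.5-fold and each of the 4 pairings of a lane from either dose points the same way. At 10 µM the 5 higher and 3 lower genes are 33.3% of the 24, while the same rule called 15.7% of the 12567 genes compared higher, 19.1% lower and 34.8% in either direction. At 5 µM the 5 higher and 4 lower genes are 37.5% of the 24, against 14.1%, 16.8% and 30.9% of all genes. The share of the 24 genes called was thus near that of all genes in both comparisons, which use the same 0 µM library. Between 5 and 10 µM none of the 24 was called, where 0.414% of all genes were higher and 1.35% lower, 1.77% in all.

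The median log2 fold of the 24 genes was 0.03 at 10 against 0 µM and 0.09 at 5 against 0 µM, beside −0.03 and −0.03 over all genes compared. Their median absolute log2 fold was 0.46 at 10 µM and 0.49 at 5 µM, beside 0.41 and 0.37. After scaling the files to the same sum of FPKM without Snora62, 7 members were higher and 2 lower at 10 µM, and 7 higher and 2 lower at 5 µM, but this scaling also moved the median of all genes by 0.20 and 0.16. Under it 23.4% of all genes were higher and 12.5% lower at 10 µM, and 20.4% and 10.95% at 5 µM. With scaling by trimmed means, 5 members were higher and 2 lower at 10 µM and 6 higher and 4 lower at 5 µM.

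**Figure D1:**
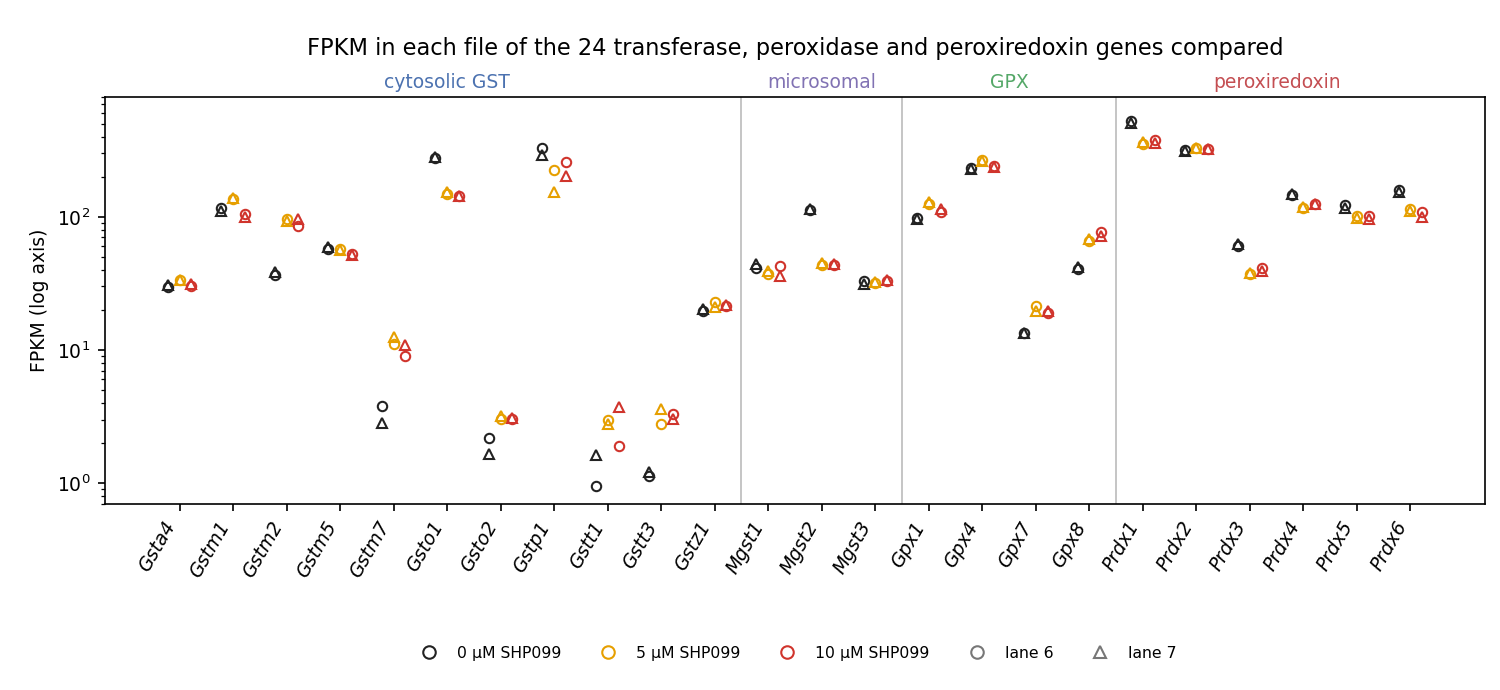
FPKM on a log axis of the 24 genes compared, ordered by family, with 1 point per file: circles for lane 6, triangles for lane 7, coloured by dose. Levels run from 0.944 FPKM for Gstt1 to 523 FPKM for Prdx1. The points at 5 and 10 µM lie together and away from 0 µM for genes such as Gstm2, Gstm7, Gsto1, Mgst2, Gpx8 and Prdx3. They do so too for Gstt3, and for Prdx1, Prdx6 and Gpx7, which were not called.

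**Figure D2:**
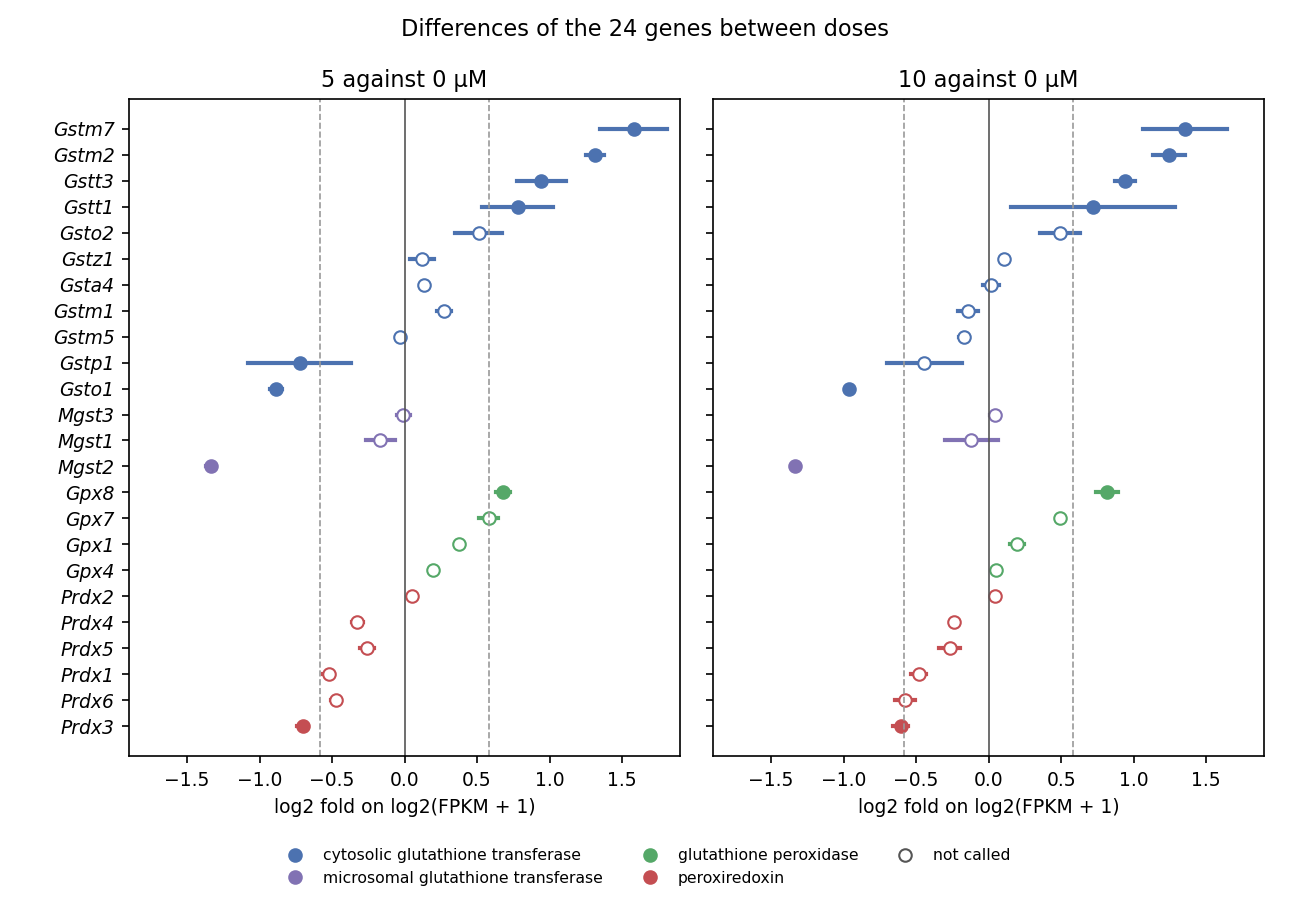
Log2 fold on log2(FPKM + 1) of the 24 genes at 5 and at 10 µM, each against the cells without drug. Lines give the range of the 4 lane-to-lane differences, and open points are genes not called. Mgst2 lies at −1.34 at both doses. Gstm7 lies at 1.35 at 10 µM and 1.58 at 5 µM, with a line that overlaps that of Gstm2.

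The promoters of 4 genes are shown, since 3 of them hold an AP-1 site in the window and Gstm2, the most abundant of the higher genes at both treated doses, holds none of the motifs searched. Among the genes compared, Gstm5 also holds the AP-1 site, was not called at either dose and is not shown. Each runs from 250 bases before to 50 bases after the annotated start, 5′ to 3′ on the gene's strand, from RefSeq on GRCm38.p6. They lie at chr3:51660929-51661228 on the + strand for Mgst2, chr19:4037863-4038162 on the − strand for Gstp1, chr4:116685349-116685648 on the + strand for Prdx1 and chr3:107986371-107986670 on the − strand for Gstm2. Capitals mark the AP-1 site TGANTCA and the core of the antioxidant response element, TGACNNNGC, read on both strands, and in Prdx1 the second block holds both, since their letters overlap there.
Mgst2: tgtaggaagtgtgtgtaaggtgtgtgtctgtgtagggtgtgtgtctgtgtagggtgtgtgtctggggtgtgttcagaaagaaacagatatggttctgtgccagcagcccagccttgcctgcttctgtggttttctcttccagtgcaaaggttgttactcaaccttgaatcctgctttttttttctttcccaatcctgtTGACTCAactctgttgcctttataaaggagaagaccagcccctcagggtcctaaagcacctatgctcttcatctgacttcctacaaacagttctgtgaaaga
Gstp1: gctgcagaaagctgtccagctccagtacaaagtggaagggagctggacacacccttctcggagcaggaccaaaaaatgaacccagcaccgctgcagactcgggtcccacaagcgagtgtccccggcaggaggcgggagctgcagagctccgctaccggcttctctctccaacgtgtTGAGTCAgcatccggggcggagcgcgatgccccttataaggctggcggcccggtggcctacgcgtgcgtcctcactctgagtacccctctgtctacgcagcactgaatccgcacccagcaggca
Prdx1: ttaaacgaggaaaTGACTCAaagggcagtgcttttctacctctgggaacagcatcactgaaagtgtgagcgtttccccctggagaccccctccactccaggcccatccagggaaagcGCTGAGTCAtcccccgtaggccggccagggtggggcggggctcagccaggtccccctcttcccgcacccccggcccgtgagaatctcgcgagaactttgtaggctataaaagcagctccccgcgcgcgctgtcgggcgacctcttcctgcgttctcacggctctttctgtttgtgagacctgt
Gstm2: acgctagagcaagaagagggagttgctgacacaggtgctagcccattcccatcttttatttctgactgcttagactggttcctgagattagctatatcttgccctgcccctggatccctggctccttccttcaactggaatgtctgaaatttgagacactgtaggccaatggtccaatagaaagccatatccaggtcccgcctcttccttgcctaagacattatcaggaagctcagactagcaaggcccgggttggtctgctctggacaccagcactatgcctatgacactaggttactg

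Of the 24 genes, 22 have a promoter in that table, and there was no entry for Prdx6 and Gsta4. The AP-1 site stood in 4 of the 22 (18.2%): Gstm5 at 176 bases before the start, Gstp1 at 74, Mgst2 at 52 and Prdx1 at 237 and 131. It stood in 5.81% of the 9167 genes compared that have a promoter and in 8.97% of all 27025 genes with one. At 10 µM these 4 genes had log2 folds of −0.17, −0.44, −1.34 and −0.48, of which only that of Mgst2 passed the rule. No AP-1 site stood in the windows of Gsto1 and Prdx3, also lower at 10 µM, or in those of the genes called higher. The response element core stood in Gstm5 at 42 bases before the start, Gstm7 at 129, Mgst1 at 56 and Prdx1 at 133, again 4 of 22, beside 17.1% of genes compared and 13.99% of all genes with a promoter. An ETS site, CCGGAAGT on either strand, stood in 1 of 22 (4.55%), in Prdx5 at 18 bases after the start, beside 9.91% of genes compared. These matches describe letters in a window and no binding was measured. The messages of Nfe2l2, which encodes the factor NRF2 known to act at the response element, were at 62.3, 46.8 and 49.96 FPKM at 0, 5 and 10 µM, and those of its inhibitor Keap1 at 20.02, 17.6 and 15.8. Ptpn11, which encodes the drug's target SHP-2, stood at 59.0, 58.4 and 57.7 FPKM. Fosl1, which encodes a subunit of AP-1, was at 62.1, 3.89 and 2.06 FPKM, and Mki67, a marker of cycling cells, at 94.6, 13.03 and 5.67. The part of either in the results was not tested.

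Among the cytosolic glutathione transferases and Gstk1, the kappa-class member, 11 of 22 were compared, and 4 were higher and 1 lower at 10 µM. The calls are 45.5% of the 11, beside 15.7% of all genes compared called higher, 19.1% lower and 34.8% in either direction. The median over the 11 was 0.11 on the log2 scale, beside −0.03 over all genes. Values of single genes are given as the lane 6 and lane 7 files of each dose. Gstm2, a mu-class transferase, was listed at 36.8 and 38.3 FPKM without drug, 97.1 and 92.6 with 5 µM, and 85.3 and 95.9 with 10 µM. The files of both treated doses lie apart from those at 0 µM and overlap with each other. The log2 fold was 1.25 at 10 µM, with lane-to-lane differences from 1.13 to 1.36, and 1.31 at 5 µM, from 1.25 to 1.38.

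Gstm7, a less abundant mu-class gene, followed the same order with 3.76 and 2.82 FPKM without drug, 11.1 and 12.4 with 5 µM, and 8.94 and 10.9 with 10 µM. Its log2 fold was 1.35 at 10 µM, with lane-to-lane differences from 1.06 to 1.64 that span those of Gstm2, and 1.58 at 5 µM. The mu genes lie next to each other on chromosome 3 in the order Gstm5, Gstm7, Gstm6, Gstm3, Gstm2, Gstm1 and Gstm4, so both higher genes have neighbours that were not called. Gstm1, the most abundant mu gene at 0 µM, was at 116 and 111 FPKM without drug, 136 and 138 with 5 µM, and 105 and 100.2 with 10 µM, a log2 fold of −0.14 at 10 µM and 0.27 at 5 µM. Gstm5 was at 57.8 and 59.2 FPKM without drug, 57.6 and 56.8 with 5 µM, and 52.6 and 51.4 with 10 µM, which gave −0.17 and −0.03. Gstm6 stayed at 0.138 to 0.376 FPKM, and Gstm3 and Gstm4 stayed under 0.1 FPKM in every file. Of the 50-base windows in their transcripts, Gstm1 shares 23.1% and Gstm2 9.36% with other genes, while Gstm5 and Gstm7 share none. Only 0.887% of the windows of Gstm1 and 1.08% of those of Gstm2 are shared between Gstm1 and Gstm2. Part of the reads of Gstm1 and Gstm2 could be assigned to another entry, so their values are less certain.

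Gsto1, the omega-class transferase that also reduces dehydroascorbate, was lower at both treated doses. It was at 278 and 281 FPKM without drug, 148 and 155 with 5 µM, and 144 and 143 with 10 µM. No file of a treated dose reached the level of the 0 µM files. Its log2 fold was −0.96 at 10 µM, with lane-to-lane differences from −0.97 to −0.95, and −0.88 at 5 µM, and it shares no window with another gene. The neighbouring Gsto2 on chromosome 19 was low, at 2.17 and 1.64 FPKM without drug, 3.03 and 3.22 with 5 µM, and 3.04 and 3.09 with 10 µM, and its log2 folds of 0.49 and 0.51 did not pass the rule. With a pseudocount of 0.1 FPKM in place of 1 they were 0.67 and 0.70 and did.

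Gstp1, the pi-class transferase and the most abundant of the cytosolic family, was at 328 and 291 FPKM without drug, 226 and 155 with 5 µM, and 256 and 201 with 10 µM. It was lower at 5 µM, with a log2 fold of −0.72, while the −0.44 at 10 µM did not pass the rule. Its lanes were far apart: they differed by 11.8%, 37.3% and 24.1% of their mean at 0, 5 and 10 µM, where about 3471 to 8932 fragments per file were behind each value. Without the lane 7 file of 5 µM the log2 fold at 5 µM was −0.45 and not called. When the lane 6 file of 10 µM was dropped, that at 10 µM was −0.62 and called. Gstp1 shares 62.3% of its windows with Gstp2 and a pseudogene, so its level is uncertain. Gstp2 itself was below the level compared, with dose means of 0.894, 0.418 and 0.944 FPKM, and the pseudogene Gstp-ps was listed at 0.

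The theta-class genes Gstt1 and Gstt3, which handle small halogenated compounds, were low at 0 µM and higher at both doses. Gstt3 was at 1.12 and 1.21 FPKM without drug, 2.78 and 3.58 with 5 µM, and 3.28 and 3.03 with 10 µM, a log2 fold of 0.94 at 10 µM and 0.94 at 5 µM. Gstt1 was at 0.944 and 1.61 FPKM without drug, 2.96 and 2.79 with 5 µM, and 1.903 and 3.73 with 10 µM, with log2 folds of 0.72 and 0.78. The lane-to-lane differences of Gstt1 at 10 µM ran from 0.15 to 1.28, and about 38.3 to 99.5 fragments were behind each of its values. Its call at 10 µM was lost without the lane 6 file of 0 µM, at 0.50, and without the lane 7 file of 10 µM, at 0.37, and its call at 5 µM was lost without the lane 6 file of 0 µM, at 0.57. With a pseudocount of 5 FPKM neither gene was called, with log2 folds of 0.31 for Gstt1 and 0.40 for Gstt3 at 10 µM. Their neighbours on chromosome 10, Gstt4 and Gstt2, stayed under 0.1 FPKM in every file, and 26.0% of the windows of Gstt3 are shared with the overlapping entry Gm20441.

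Gsta4, which conjugates the lipid peroxidation product 4-hydroxynonenal, was at 29.5 and 30.9 FPKM without drug, 33.3 and 33.3 with 5 µM, and 30.002 and 31.1 with 10 µM. Gstz1, an isomerase of tyrosine breakdown, was at 19.7 and 20.3 FPKM without drug, 22.8 and 20.9 with 5 µM, and 21.6 and 21.7 with 10 µM. The log2 folds of this pair ran from 0.02 to 0.14 over both doses and did not pass the rule. The remaining members, Gsta1, Gsta2, Gsta3, Gstk1 and Gstp3, stayed at or under 0.183 FPKM, and Gsta2 and Gstt2 were listed at 0 in every file.

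**Figure D3:**
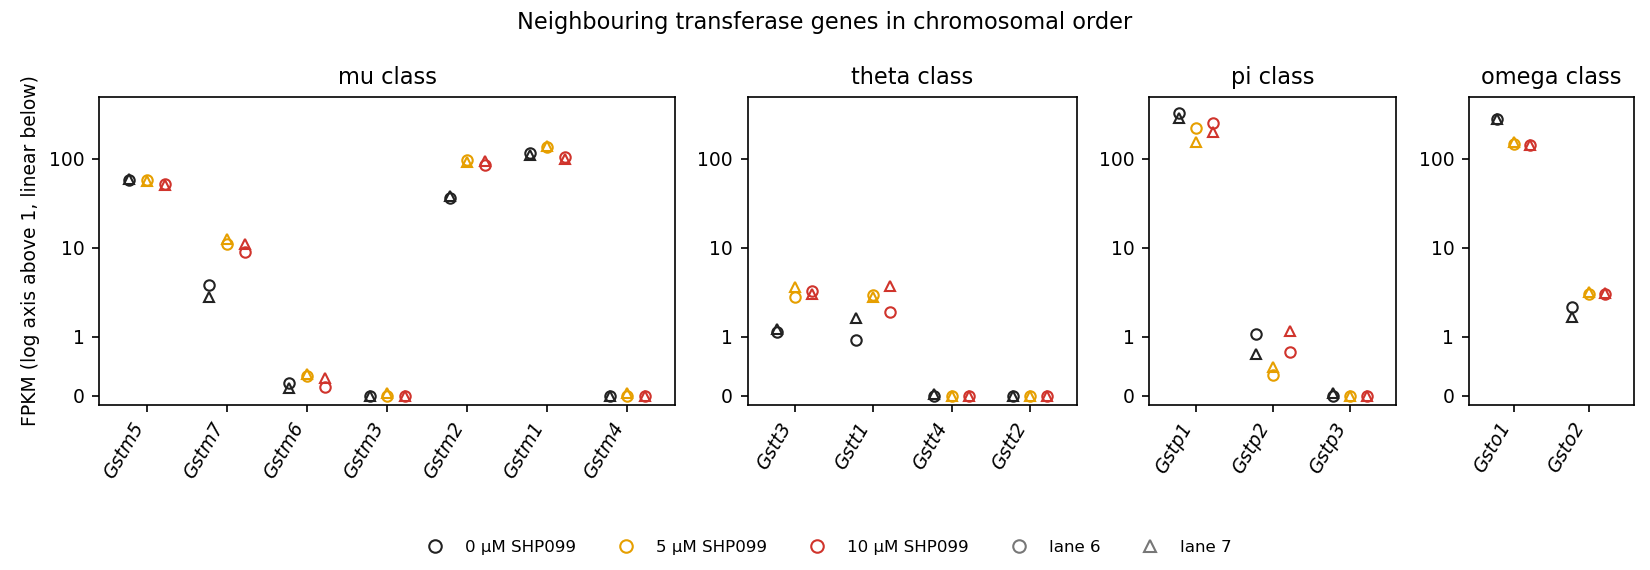
FPKM in each file (log axis above 1 FPKM, linear below) of the mu, theta, pi and omega transferases, in the order in which the genes lie on their chromosomes; circles are lane 6 and triangles lane 7, coloured by dose. Gstm2 and Gstm7 are higher at both treated doses while Gstm1, next to Gstm2, and Gstm5, next to Gstm7, are not called, and Gsto1 is lower while Gsto2 is not called.

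Among the 3 microsomal transferases Mgst2 was lower and the others were not called, where 19.1% of all genes compared were lower at 10 µM. Mgst2, an enzyme that can make leukotriene C4, was at 112 and 114 FPKM without drug, 43.5 and 44.8 with 5 µM, and 43.7 and 44.6 with 10 µM. The 4 treated files lie close together, below the level of both 0 µM files. Its log2 fold was −1.34 at 10 µM, with lane-to-lane differences from −1.36 to −1.31, and −1.34 at 5 µM, and 4.37% of all genes compared had a lower log2 fold at 10 µM. Between 5 and 10 µM it differed by −0.00. Mgst1, a membrane transferase with peroxidase activity, was at 41.1 and 44.5 FPKM without drug, 36.9 and 39.2 with 5 µM, and 42.98 and 35.9 with 10 µM, and Mgst3 was at 33.1 and 31.5 FPKM without drug, 31.9 and 32.3 with 5 µM, and 33.2 and 33.3 with 10 µM. The log2 folds of Mgst1 were −0.12 and −0.17, and those of Mgst3 0.04 and −0.01.

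Of the 8 glutathione peroxidases 4 were compared, and all 4 had log2 folds above 0 at both doses, but only Gpx8 passed the rule. Their medians were 0.34 at 10 µM and 0.48 at 5 µM, beside −0.03 at each dose over all genes. Of the 12567 genes compared, 6005 were above 0 at 10 µM and 5984 at 5 µM. The rule called 15.7% of them higher at 10 µM and 14.1% at 5 µM. Gpx8, a peroxidase of the endoplasmic reticulum membrane that carries cysteine in place of selenocysteine, was at 40.8 and 42.2 FPKM without drug, 65.9 and 68.2 with 5 µM, and 76.7 and 71.3 with 10 µM. Its log2 fold was 0.82 at 10 µM and 0.68 at 5 µM, and the files at 0 µM lie below all treated files. Gpx7, the related protein of the endoplasmic reticulum lumen, was at 13.4 and 13.5 FPKM without drug, 21.5 and 19.7 with 5 µM, and 19.05 and 19.6 with 10 µM. Its log2 folds of 0.49 and 0.58 came short of 1.5-fold, and a call at 5 µM appeared when the lane 7 file of 5 µM was left out (0.64).

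The selenocysteine peroxidases were more abundant. Gpx1, the cytosolic peroxidase, was at 98.8 and 96.7 FPKM without drug, 126 and 129 with 5 µM, and 109 and 115 with 10 µM. Gpx4, which reduces lipid hydroperoxides in membranes and is known for holding back ferroptosis, was at 233 and 230.2 FPKM without drug, 266 and 264 with 5 µM, and 241 and 238 with 10 µM. In both genes the files at 5 µM were the highest and those at 0 µM the lowest, with log2 folds of 0.38 and 0.19 at 5 µM and 0.19 and 0.05 at 10 µM, none of which passed the rule. Gpx4 shares 61.7% of its windows with other entries, chiefly the pseudogene Gpx4-ps2, which was itself listed at means of 105, 131 and 115 FPKM, and with the pseudogene added the log2 folds of Gpx4 were 0.23 at 5 µM and 0.07 at 10 µM. Gpx2, Gpx3, Gpx5 and Gpx6 were under 0.1 FPKM in every file.

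Of the 7 peroxiredoxins 6 were compared, and their median was −0.38 on the log2 scale at 10 µM and −0.40 at 5 µM. In 5 of the 6 the log2 fold was below 0 at 10 µM, and only Prdx3 passed the rule. Of the 12567 genes compared, 6550 were below 0 at 10 µM and 19.1% were called lower, with a median of −0.03. Prdx3, the peroxiredoxin of mitochondria, was at 60.6 and 62.3 FPKM without drug, 36.9 and 37.8 with 5 µM, and 40.9 and 39.1 with 10 µM. All treated files lie below the files at 0 µM, with a log2 fold of −0.61 at 10 µM and −0.70 at 5 µM. The value at 10 µM is near the limit of the rule: it was −0.57 and not called without the lane 7 file of 10 µM or with scaling by trimmed means, and −0.56 and not called when the pseudocount was 5 FPKM.

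Prdx6, the peroxiredoxin that uses a single reactive cysteine and can act on phospholipids, came just short of the rule at 10 µM. It was at 158 and 154 FPKM without drug, 114 and 111 with 5 µM, and 108 and 100.4 with 10 µM, with log2 folds of −0.58 and −0.47. Without the lane 7 file of 0 µM its log2 fold at 10 µM was −0.60 and called, and without the lane 6 file of 10 µM it was −0.63 and called.

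Prdx1, a cytosolic peroxiredoxin and the most abundant of the 24 genes, was at 523 and 508 FPKM without drug, 354 and 363 with 5 µM, and 376 and 361 with 10 µM, with log2 folds of −0.48 at 10 µM and −0.52 at 5 µM. Prdx2, its close relative, was at 316 and 313 FPKM without drug, 326 and 326 with 5 µM, and 324 and 324 with 10 µM, with log2 folds of 0.04 and 0.05. The lanes of Prdx2 differed by 0.000306% of their mean at 5 µM and 0.000309% at 10 µM, far less than the counting error of 0.761% to 0.854% per file, so they give no measure of its error there, and the reason is not known. The level of Prdx1 at 0 µM lies above all treated files, while the files of Prdx2 lie between 313 and 326 FPKM. Prdx1 shares 10.9% and Prdx2 8.96% of their windows with other entries. Prdx4, the peroxiredoxin of the endoplasmic reticulum, was at 145 and 149 FPKM without drug, 116 and 118 with 5 µM, and 125 and 124 with 10 µM, and Prdx5, found in mitochondria and peroxisomes, was at 122 and 117 FPKM without drug, 101 and 98.4 with 5 µM, and 102 and 96.03 with 10 µM. Their log2 folds were −0.24 and −0.27 at 10 µM and did not pass the rule. Prdx6b was listed at 0 in every file.

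Summed FPKM give the makeup of each family. The 40 members together summed to 2745 FPKM without drug, 2353 with 5 µM and 2312 with 10 µM, which is 14.3% and 15.8% below the sum without drug. The sum over all genes without Snora62 was itself 11.9% and 14.03% below that without drug. The cytosolic transferases went from 858 to 708 and 689.7 FPKM, the microsomal ones from 188 to 114 and 117, and the peroxiredoxins from 1314 to 1051 and 1060, while the peroxidases went from 384 to 480.2 and 445. Within the cytosolic family the share of Gstm2 was 4.38%, 13.4% and 13.2% over the rising doses, that of Gsto1 was 32.6%, 21.4% and 20.8%, and that of Gstp1 36.0%, 26.7% and 33.1%. Mgst2 made up 60.1%, 38.6% and 37.8% of the microsomal sum. Gpx8 made up 10.8%, 14.0% and 16.6% of the peroxidase sum. These sums compare levels per length and, like the sums of FPKM per file, are relative to the other genes of the library.

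**Figure D4:**
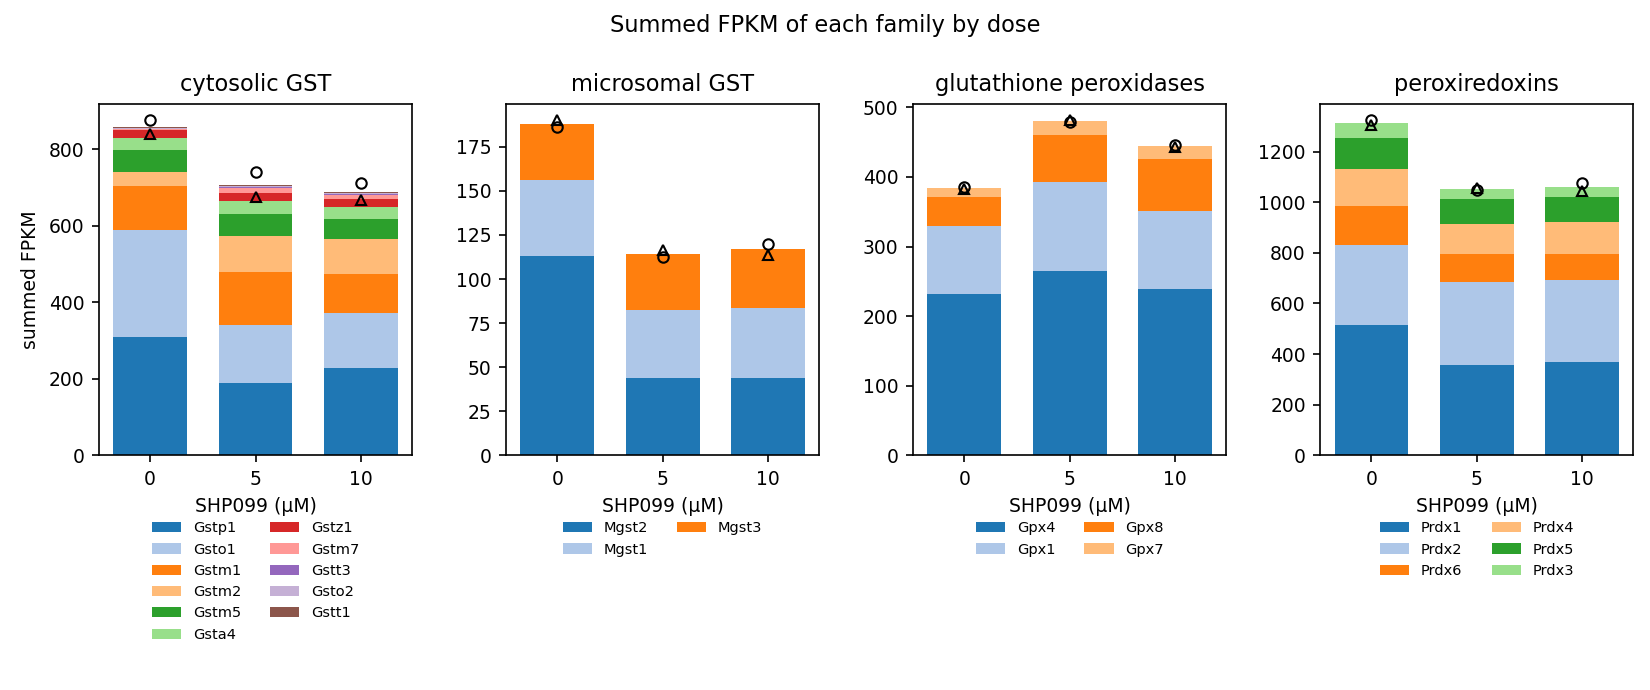
Summed FPKM of each family at 0, 5 and 10 µM SHP099, as bars of lane means stacked by gene for the genes compared, with circles for the lane 6 sum and triangles for the lane 7 sum. The microsomal sum is 188, 114 and 117 FPKM with Mgst2 as the part that shrinks most, and the peroxidase sum is 384 FPKM at 0 µM and higher at both treated doses.

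**Figure D5:**
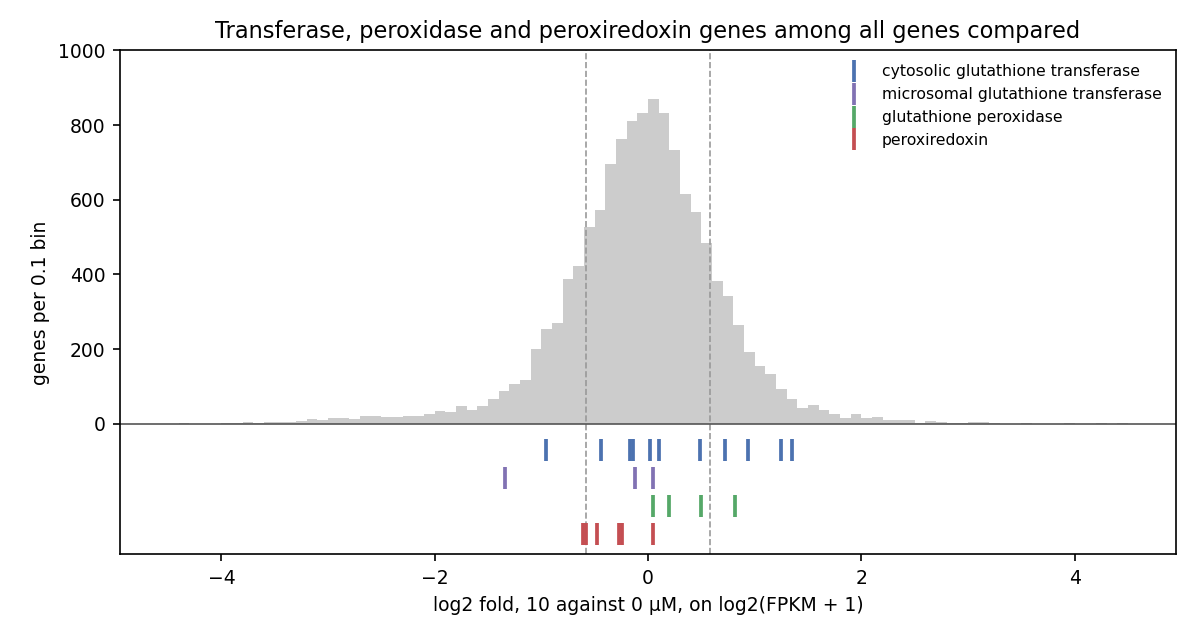
Number of genes per 0.1 bin of the log2 fold at 10 against 0 µM for the 12567 genes compared (grey), with a tick for each of the 24 genes by family and dashed lines at 1.5-fold. The ticks spread over the range of most genes, the 4 peroxidases all lie above 0 and 5 of 6 peroxiredoxins below it.

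The enzymes that supply these families were read from lists of partner genes. Among 22 genes of glutathione synthesis and recycling, 20 were compared, and 2 were higher and 5 lower at 10 µM, 3 higher and 4 lower at 5 µM. The calls are 35% of the 20 at each dose, near the 34.8% and 30.9% of all genes compared at 10 and 5 µM. With equal sums of FPKM without Snora62 the list had 3 higher and 3 lower at 10 µM and 5 higher and 2 lower at 5 µM. Of all genes, 23.4% were higher and 12.5% lower at 10 µM with those sums, and 20.4% and 10.95% at 5 µM. At 2-fold the list had 2 higher and 2 lower at 10 µM and 1 and 2 at 5 µM. That limit called 13.75% of all genes in either direction at 10 µM and 11.2% at 5 µM. Gsr, which regenerates glutathione from its oxidised form, fell from 44.2 FPKM without drug to 15.998 with 5 µM and 15.04 with 10 µM, a log2 fold of −1.49 at 10 µM. Gclc, the catalytic subunit of the enzyme that starts glutathione synthesis, fell from 29.4 to 11.97 and 10.5 FPKM, a log2 fold of −1.40 at 10 µM. Chac1, which breaks glutathione down, rose from 41.0 to 97.7 and 101 FPKM, and Oplah, which returns glutamate from 5-oxoproline, from 3.88 to 8.20 and 8.88. Cbs, also called higher at 5 µM, had means of 0.518, 1.52 and 1.05 FPKM at 0, 5 and 10 µM. It was compared only because it reached 1 FPKM at the treated doses. The list's median log2 fold was −0.13, beside −0.03 over all genes.

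The thioredoxin system, which serves the peroxiredoxins, had 16 of 16 genes compared. At 10 µM 2 were higher and 4 lower, and at 5 µM 4 were higher and 3 lower. These are 37.5% of the 16 at 10 µM and 43.75% at 5 µM, beside 34.8% and 30.9% of all genes compared. The list's median log2 fold at 10 µM was −0.26, beside −0.03 over all genes. Txn1, the cytosolic thioredoxin, fell from 481 FPKM without drug to 192 with 5 µM and 159 with 10 µM, a log2 fold of −1.59 at 10 µM. Txnrd1, which reduces thioredoxin, fell from 89.5 to 52.3 and 49.8 FPKM. Sesn1 and Sesn2, stress-induced sestrins, rose from 11.7 to 21.3 and from 10.1 to 24.6 FPKM at 10 µM. Without the lane 7 file of 10 µM, 2 genes of the list were lower in place of 4, and with equal sums of FPKM 4 were higher and 2 lower. With equal sums 23.9% of all genes were higher and 12.6% lower at 10 µM.

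Selenoprotein synthesis, on which Gpx1 and Gpx4 depend, had 10 of 11 listed genes compared, 1 higher and 5 lower at each dose. These are 60% of the 10 at each dose, beside 34.8% and 30.9% of all genes compared at 10 and 5 µM. The list's median log2 fold at 10 µM was −0.55, beside −0.03 over all genes. Selenop, a secreted selenium carrier, rose from 6.26 FPKM without drug to 30.2 with 5 µM and 30.7 with 10 µM, a log2 fold of 2.13 at 10 µM. Lrp8, a receptor for it, fell from 23.3 to 9.09 and 7.68 FPKM. Sephs2, which makes the selenium donor, fell from 40.3 to 16.3 and 15.7 FPKM, and Trnau1ap, which works with the selenocysteine transfer RNA, from 34.6 to 18.6 and 17.8. With equal sums of FPKM without Snora62, 3 genes were lower at 5 µM in place of 5, where 10.95% of all genes were lower.

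The superoxide dismutases and catalase, which make and remove hydrogen peroxide, had 5 of 5 genes compared, counting the copper chaperone Ccs. At 10 µM 1 was higher and 1 lower, and at 5 µM 1 was higher and 0 lower. These are 40% and 20% of the 5, beside 34.8% and 30.9% of all genes compared. Sod3, the extracellular enzyme, rose from 2.73 to 7.14 and 6.79 FPKM. Sod1, the cytosolic enzyme, was at 436, 315 and 275 FPKM and lower at 10 µM, with a log2 fold of −0.66. Sod2, the mitochondrial enzyme, was at 31.3, 27.002 and 27.7 FPKM and not called, and neither was Ccs, with a log2 fold of 0.24. With equal sums of FPKM none of the 5 was lower at 10 µM, where 12.6% of all genes were. None of the genes in the 4 lists was called between 5 and 10 µM, where 1.77% of all genes compared were.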

How the data were processed

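RNA was measured in 6 files, 1 per lane, which were read from their labels as 3 libraries, 1 for each dose of SHP099. The values are FPKM as deposited by the authors. Bowtie 0.12.2 and the build mm8 are named per the submitters' processing notes; the tool that computed the FPKM is not given in the sources used here. Entries with the same symbol were summed, and lane means were taken on log2(FPKM + 1), so a fold of a low gene is understated. A gene was compared where its mean at any dose reached 1 FPKM. Lanes were taken as repeat runs, so no test was made. Depth was fitted as the count of mapped fragments that turns low FPKM into whole fragments, which held within 0.1 for 97.6% to 98.4% of the genes used per file; fragments cover counting error only. Shared windows of 50 bases were counted over GENCODE transcripts, and the read length is not given. Every member is accounted for, and from each partner list the 4 genes with the largest absolute log2 fold at 10 against 0 µM are named. Cbs is named as well for its low level. The members and lists were chosen with earlier results of these data known. The call rule was tested on simulated data without variation between cultures. There the files were scaled by trimmed means, which the main calls did not use. Alternatives were other pseudocounts, filters, scalings, fold limits, single lanes and files left out. Python 3.11.15, numpy 2.4.6, pandas 2.3.3 and matplotlib 3.10.9 were used.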

Additional observations from a re-analysis of the deposited data

How the results depend on the processing

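No paired analysis was possible because each dose was read as 1 library and the counts and folds come from no test. None of the log2 folds of single genes at 10 or 5 against 0 µM that passed the rule changed sign under an alternative, and of the genes called, Gstm2, Gstm7 and Mgst2 were called under every alternative at both doses. At 10 against 0 µM the 5 higher genes became 3 with a pseudocount of 5 FPKM, 3 with a filter of 5 FPKM and 2 at 2-fold. The 3 lower genes became 1 at 2-fold and 2 to 5 with 1 file left out. The median of 0.03 was 0 without a filter, −0.12 with the filter of 5 FPKM, 0.0683 with trimmed means, 0.0603 with the median of all genes shifted to 0, 0.23 with equal sums, with or without Snora62, 0.0450 in lane 7 alone, and 0.00883 to 0.0427 with 1 file left out. At 5 against 0 µM the 5 higher genes became 3 with a pseudocount of 5 FPKM, 3 with the filter of 5 FPKM and 2 at 2-fold, and the 4 lower genes became 2 with equal sums without Snora62 and 1 at 2-fold. The median of 0.09 was 0 without a filter, −0.00733 with the filter of 5 FPKM, 0.12 with trimmed means, 0.12 with the shifted median, −0.14 with equal sums, 0.24 with equal sums without Snora62, 0.0482 in lane 6, 0.0395 in lane 7, and 0.0482 to 0.10 with 1 file left out. At 10 against 5 µM equal sums gave 2 higher genes in place of 0, and 0 to 1 were higher with 1 file left out. The median of −0.02 was −0.00163 without a filter, −0.00486 with the shifted median, 0.34 with equal sums, 0.0194 with equal sums without Snora62, −0.00993 in lane 6, −0.00993 in lane 7, and −0.0353 to −0.0119 with 1 file left out. With equal sums, Gpx8 was not called at 5 µM (0.49), and with equal sums without Snora62, neither were Gstp1 (−0.54) and Prdx3 (−0.52). Gstm2 had a higher log2 fold than Gstm7 at 10 µM with a pseudocount of 5 FPKM, in lane 6 alone and without the lane 7 file of 0 µM. Depth limits Gstt1, Gstt3, Gsto2 and Gstm7, and without replicate libraries a difference between cultures cannot be told apart from one between doses.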

Other observations

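Gstcd, a gene named for its glutathione transferase C-terminal domain, lies outside the symbols chosen and was picked after its values were seen. It was at 13.8 and 14.2 FPKM without drug, 6.98 and 6.74 with 5 µM and 6.32 and 6.78 with 10 µM, with log2 folds of −0.99 at 10 µM, −0.93 at 5 µM and −0.06 between the treated doses.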
